A study of Prunus persica with 12 samples.

Results

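The comparison set fruit of 'Hu Jing Mi Lu' at the stage numbered 3 (HJ3) against fruit of 'Yu Lu' at the stage numbered 2 (YL2). Its members were 4 of the 12 RNA-seq libraries of the series, 2 of HJ3 and 2 of YL2, taken by the group and replicate number in the sample titles. Both cultivars were labelled as strong in aroma and soft melting in flesh texture, and all RNA came from peach (Prunus persica) mesocarp, the flesh that is eaten. Brix, a measure of soluble solids, was 12.5 for HJ3 and 14.9 for YL2. The 'Hu Jing Mi Lu' libraries of stage 2 (HJ2), also strong in aroma and soft melting, with a Brix of 12.1, gave the comparison at equal stage number that HJ3 replaces. The remaining groups were 'Hu Jing Mi Lu' at stage 1 (HJ1, slight aroma), 'Jin Xiu Huang Tao' (JX2, strong aroma) and the hard-melting 'Zhong Hua Shou Tao' (ZH2, slight aroma), again with 2 libraries each. Fruit firmness and volatiles themselves were not analysed here. Each cultivar other than 'Hu Jing Mi Lu' had a single stage, and the labels do not say how the stage numbers of different cultivars relate, so cultivar, ripeness and harvest cannot be told apart in HJ3 against YL2. Nor do they say that both libraries of a group were taken from different fruit or trees. The p-values thus reflect only how far these samples scatter, which could be technical, and in bulk tissue fewer cells of a type and less RNA per cell cannot be told apart.

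Peach is a climacteric fruit, in which a burst of ethylene accompanies ripening. In flesh of the melting type, enzymes that take apart pectin and other wall polymers, endopolygalacturonases among them, act late in ripening and the flesh softens quickly. Peach aroma comes largely from lactones, which derive from fatty acids, and from terpenoids such as linalool, and the mixture shifts from green-smelling aldehydes and alcohols towards lactones as fruit ripen. Fruit of unlike ripeness can therefore differ in many transcripts for reasons of stage, and fruit of like ripeness for reasons of cultivar. The files give genes by identifier only, and a search of the RefSeq gene table found 0 of the 27864. The genes below are therefore named by identifier, at most 2 in each direction for each comparison or class of genes, with no function, position or sequence, and the tissue label could not be checked against marker genes.

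HJ3 and YL2 libraries lay closer to each other than to HJ2 on the scale of the deposited values. The values were RPKM, the reads of a gene scaled to its length in kilobases and to the size of the library, compared as log2(RPKM + 1) over the 15217 genes with at least 1 RPKM in at least 2 of the 12 libraries. The root mean square difference between an HJ3 and a YL2 library ran from 0.890 to 0.919 on the log2 scale over the 4 pairs. It ran from 1.080 to 1.104 between HJ2 and YL2 libraries and from 1.057 to 1.0997 between HJ2 and HJ3 libraries. Libraries of the same group differed by 0.450 (HJ2), 0.470 (YL2) and 0.594 (HJ3). All 4 distances from HJ3 to YL2 thus lay above the distances within groups and below those from HJ2 to YL2 or to HJ3. With 2 libraries against 2, an exact two-sided permutation test cannot go below a p of 0.333, so these distances are a description. They include a general offset of HJ2, with a median difference over all genes of 0.18 for HJ2 minus YL2 and -0.21 for HJ3 minus HJ2. The distances were not computed again after rescaling. As a share of the summed RPKM, the part of the transcript pool that differed was between 17.6% and 18.8% for HJ3 and YL2, against 24.6% to 25.3% for HJ2 and YL2. It was 6.84% for the HJ3 libraries and 4.91% for the YL2 libraries. Depth was 1814325 and 1470038 reads in HJ3, 2460741 and 2550536 in YL2 and 2440928 and 3222252 in HJ2, so low genes were measured less precisely in HJ3. The number of identifiers above 0 was 14552 and 14135 in HJ3 and 14715 and 14803 in YL2.

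**Figure D1:**
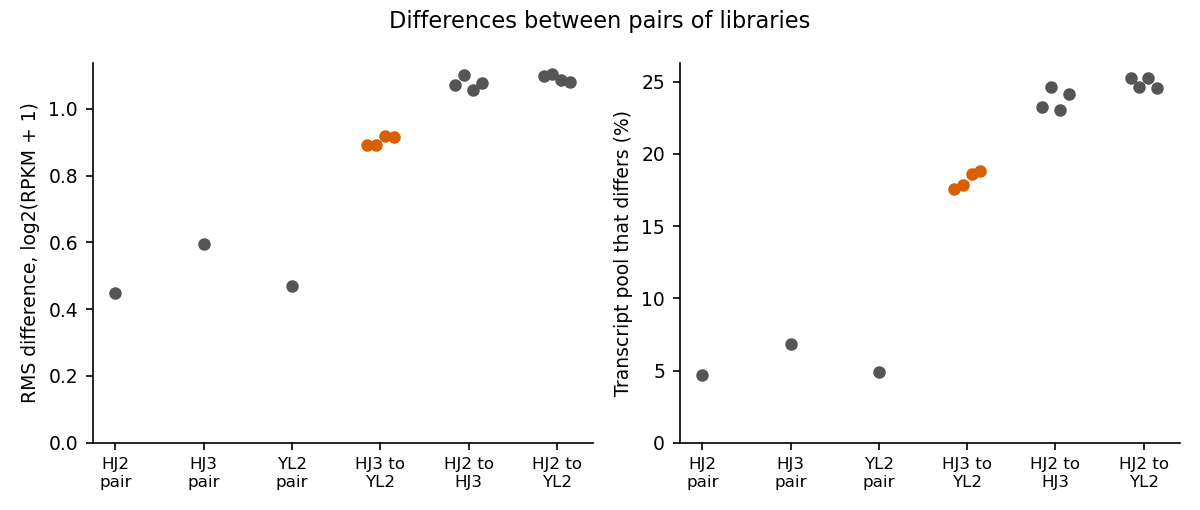
Differences between pairs of libraries, as the root mean square difference of log2(RPKM + 1) (left) and as the percentage of the summed RPKM that differs (right). Each point is a pair of libraries, and the HJ3 to YL2 pairs, in orange, lie between 0.890 and 0.919 and between 17.6% and 18.8%, below the HJ2 to YL2 pairs and above the pairs within groups.

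Of the 15217 genes, 3077 differed between HJ3 and YL2 at a limma adjusted p under 0.05, which is 20.2% of those tested. Of these, 1662 were higher in HJ3 (10.9% of the genes tested) and 1415 were lower (9.3%). Of the genes higher in HJ3, 1061 differed by 1 or more on the log2 scale, and of the lower ones 721. The median size of the difference was 1.11 over the called genes and 0.39 over all genes tested. The called genes made up a large part of the flesh transcripts. Those higher in HJ3 took 27.5% and 28.5% of the summed RPKM in the HJ3 libraries and 14.5% and 14.6% in the YL2 libraries. Those lower in HJ3 took 19.2% and 18.9% in HJ3 and 33.2% and 33.1% in YL2. The same libraries chose these genes by direction, so the shares are a description and their contrast between groups follows from the choice. Calls were more frequent among abundant genes: 46.1% of the 2127 genes with a mean of 50 RPKM or more were called, 21.3% of the 7086 genes between 5 and 50 RPKM, and 9.79% of the 6004 genes under 5 RPKM. The balance of directions also went with gene length, which was worked back from the values. With the genes in 3 length classes of like number, 65.0% of the called genes of 1645 bp and longer were higher in HJ3, against 44.7% of those up to 999 bp, and the part of length in the calls was not tested. The count was 1912 without YL2 replicate 1 (1089 higher, 823 lower) and 1927 without YL2 replicate 2 (1151 higher, 776 lower).

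The leading genes on the HJ3 side were ppa018278m and ppa011666m. The gene ppa011666m stood at 396 and 398 RPKM in the HJ3 libraries and at 3.93 and 1.42 RPKM in the YL2 libraries. HJ3 was high and YL2 near 0, with no overlap, and the mean RPKM was 148 times higher in HJ3. The YL2 level rests on 11 reads, which gives a 95% counting interval of 83.3 to 301 for the ratio, and the ratio was 279 without YL2 replicate 1. The log2 difference was 6.85 ± 0.318 (SE, limma adjusted p = 2.37e-07). HJ2 had 7.92 and 9.37 RPKM of this gene, HJ1 52.2 and 60.1, JX2 10.7 and 5.54, and ZH2 39.5 and 39.7, so HJ3 had the highest level of the 6 groups.

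The gene ppa018278m, of 243 bp, stood at 177 and 204 RPKM in HJ3 and had 0 reads in both YL2 libraries. It was at least 38.0-fold higher in HJ3, taking 3 reads in the shallower YL2 library as the most that 0 reads allow (log2 difference 7.58 ± 2.24 SE, limma adjusted p = 0.0352). Its libraries disagreed within other groups, with 112 and 0 RPKM in HJ1 and 228 and 0 RPKM in HJ2. The call was lost when any HJ3 or YL2 library was left out, with limma adjusted p-values of 0.110 to 0.137, and also with a pseudocount of 0.1 (0.0565), with no filter on low genes (0.0569), in a fit to the HJ2, HJ3 and YL2 libraries alone (0.111) and with a variance that does not follow the mean (0.0714).

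The leading genes on the YL2 side, ppa1027191m and ppa024380m, had 0 reads in all 6 'Hu Jing Mi Lu' libraries. The gene ppa024380m stood at 91.8 and 104 RPKM in YL2, at least 52.4-fold above HJ3 (log2 difference -6.63 ± 0.203 SE, limma adjusted p = 1.27e-08). It was also read in JX2, at 64.3 and 57.8 RPKM, and in ZH2, at 96.8 and 91.2 RPKM, so 'Hu Jing Mi Lu' was the cultivar without reads of it. The gene ppa1027191m stood at 185 and 144 RPKM in YL2, at least 39.2-fold above HJ3 (log2 difference -7.36 ± 0.339 SE, limma adjusted p = 2.37e-07). Outside YL2 it was read in JX2, at 3.63 and 1.35 RPKM, while ZH2 had 0 reads.

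The transcripts that moved the pool most were abundant in both cultivars and differed by little as a ratio. The gene ppa008791m stood at 27967 and 29832 RPKM in HJ3 and at 39703 and 38451 RPKM in YL2. It was 1.35 times higher in YL2 (log2 difference -0.44 ± 0.0888 SE, limma adjusted p = 0.00524). Both HJ3 libraries lay below both YL2 libraries, but the call was lost in fits to the HJ2, HJ3 and YL2 libraries alone (limma adjusted p = 0.1001) and with a variance that does not follow the mean (limma adjusted p = 0.0705). Within 'Hu Jing Mi Lu' this gene stood at 689 and 732 RPKM in HJ1 and at 15786 and 14895 RPKM in HJ2. The gene ppa007098m was next on the YL2 side, at 9620 and 9579 RPKM in YL2 and 5588 and 4375 RPKM in HJ3, a ratio of 1.93 (log2 difference -0.96 ± 0.119 SE, limma adjusted p = 0.000214). It too was lower at the earlier stages, at 136 and 139 RPKM in HJ1 and 1167 and 1160 RPKM in HJ2. For both genes YL2 was thus further from HJ2 than from HJ3, with HJ2 minus YL2 at -1.35 and -3.04 on the log2 scale (limma adjusted p = 8.11e-07 and 1.76e-08).

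On the HJ3 side the gene ppa009581m stood at 29178 and 33774 RPKM in HJ3 and at 21496 and 20446 RPKM in YL2, a ratio of 1.501 (log2 difference 0.58 ± 0.125 SE, limma adjusted p = 0.00693). HJ2, at 20815 and 22672 RPKM, overlapped with YL2. The call was lost without HJ3 replicate 2 (0.48, limma adjusted p = 0.0585) and without YL2 replicate 2 (0.55, limma adjusted p = 0.0590). The gene ppa010326m stood at 15672 and 17473 RPKM in HJ3 and at 8808 and 9986 RPKM in YL2, 1.76 times higher in HJ3 (log2 difference 0.82 ± 0.106 SE, limma adjusted p = 0.000292). It was higher than YL2 in HJ2 as well, at 13341 and 14200 RPKM, and highest in JX2, at 22574 and 21202 RPKM. Of the 10 most abundant genes of HJ3, 7 were also among the 10 most abundant of YL2, and 6 of the 10 were called between the cultivars, beside 46.1% of all genes with a mean of 50 RPKM or more.

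The next question was which differences between HJ2 and YL2 vanish when HJ3 takes the place of HJ2. HJ2 differed from YL2 at 4845 genes (31.8% of those tested), 3094 higher in HJ2 (20.3%) and 1751 lower (11.5%), by the same limma fit. Both comparisons use the same YL2 libraries, so they are not independent, and the difference between them is HJ3 minus HJ2. That step was itself called at 4480 genes (29.4%), 1623 higher in HJ3 (10.7%) and 2857 lower (18.8%), or 2886 without HJ2 replicate 1. Of the 4845 differences, 2986 (61.6%) were no longer called against HJ3, 1598 (32.98%) were called in the same direction, and 261 (5.39%) were called in the opposite direction. A lost call does not show that levels were alike. HJ3 minus HJ2 also uses the HJ2 libraries that chose these genes, which by itself favours a step towards YL2. In 1951 of the 2986 genes the step from HJ2 to HJ3 was called and led towards YL2. In 1385 of these, 28.6% of all 4845, the 95% limma interval of HJ3 minus YL2 also lay within -1 and 1 on the log2 scale, and only these are called vanished here. In the other 1035 lost calls HJ3 did not differ from HJ2 by the test either, and 421 of them had an interval within the same limits. So had 250 of the 1598 genes called in the same direction, so the limits alone do not set vanished genes apart. In 614 of the 1385 vanished genes HJ2 minus YL2 was itself under 1 in size. Lost calls numbered 1881 without HJ2 replicate 1 and 1983 without HJ2 replicate 2, and those with a called step 1219 without HJ2 replicate 1.

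**Figure D2:**
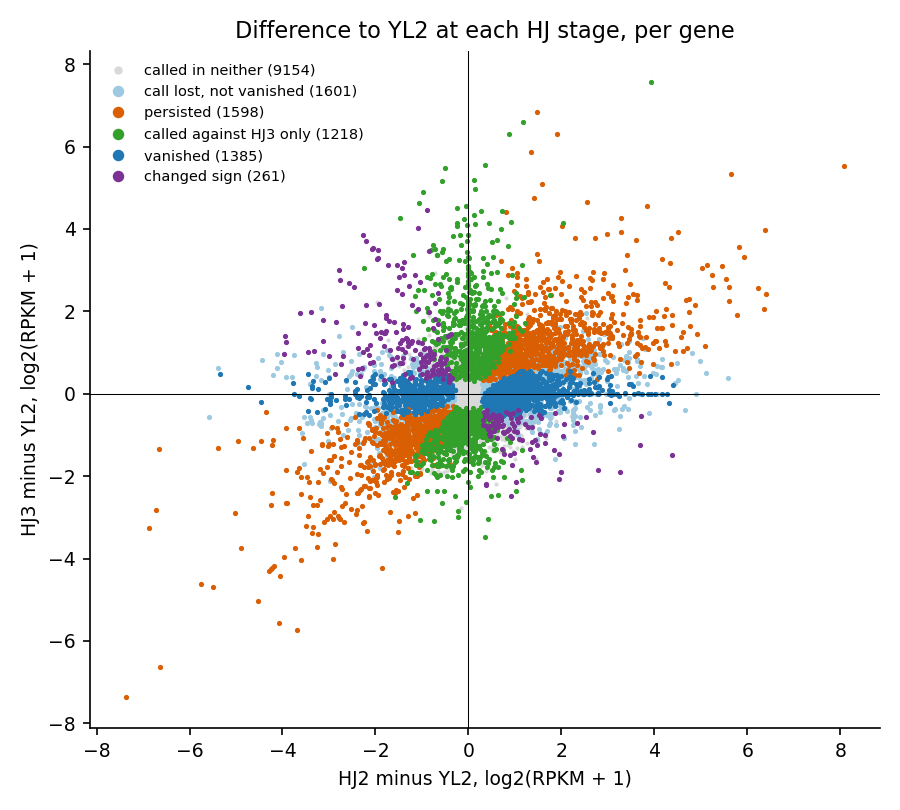
HJ2 minus YL2 (x axis) against HJ3 minus YL2 (y axis), both as differences of mean log2(RPKM + 1), with a point for each of the 15217 genes, coloured by class. Both axes share the YL2 libraries, which by itself draws points towards the diagonal; the 1385 vanished genes (dark blue) lie along the horizontal line at 0, and the 1598 persisting genes (orange) lie in the lower left and upper right.

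On the scale of the deposited values, 1020 of the 1385 vanished genes had been higher in HJ2 than in YL2 and 365 lower. After each library was rescaled by its median ratio, 670 had been higher and 555 lower. With depth taken without the 10 most abundant genes, 865 had been higher and 427 lower. With limma voom on reads worked back from the values the numbers were 807 and 406. The size of the imbalance thus depended on the processing. A median-ratio scaling sets the typical gene near no difference, which by itself evens the 2 directions. On the deposited scale the vanished genes were 32.97% of the genes called higher in HJ2 and 20.8% of those called lower. Their median difference from YL2 in size was 1.06 with HJ2 and 0.15 with HJ3, beside 0.50 and 0.39 over all genes tested; these values chose the genes and are given as a description. Rescaling by the median ratio moved the median HJ2 minus YL2 difference of all genes from 0.18 to 0.03. It moved the median HJ3 minus HJ2 difference from -0.21 to -0.05. It kept 1026 of the 1385 genes. The same rescaling turned all lost calls from 2126 higher and 860 lower to 1539 and 1218, and those with a called step from 1422 and 529 to 973 and 744. The balance of directions also went with gene length. Of the vanished genes, 87.2% of those up to 999 bp had been higher in HJ2, 73.7% of those from 1000 to 1644 bp and 59.5% of those of 1645 bp and longer. Over all genes tested, the median HJ3 minus HJ2 difference was -0.39 in the short class and -0.08 in the long one, and the part of length in the vanished differences was not tested. The count of vanished genes was 920 without YL2 replicate 1 and 855 without HJ2 replicate 1. Those that had been higher in HJ2 numbered 598 without HJ2 replicate 1, 659 without HJ2 replicate 2, 660 without YL2 replicate 1 and 657 without YL2 replicate 2.

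The fate of the HJ2 to YL2 differences is given by their size as a description only. All had to pass the limit for a call, small ones pass it by less and lose it more easily, and the interval limit of 1 is the same for every size, so a fall of the vanished share and a rise of the persisting share with size are largely set by the rules. Of the 1749 HJ2 to YL2 differences under 1 on the log2 scale, 35.1% vanished and 26.6% persisted. Of the 2173 between 1 and 2, 28.9% vanished and 32.5% persisted. Of the 326 of 3 and more, 13.8% vanished and 54.0% persisted.

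**Figure D3:**
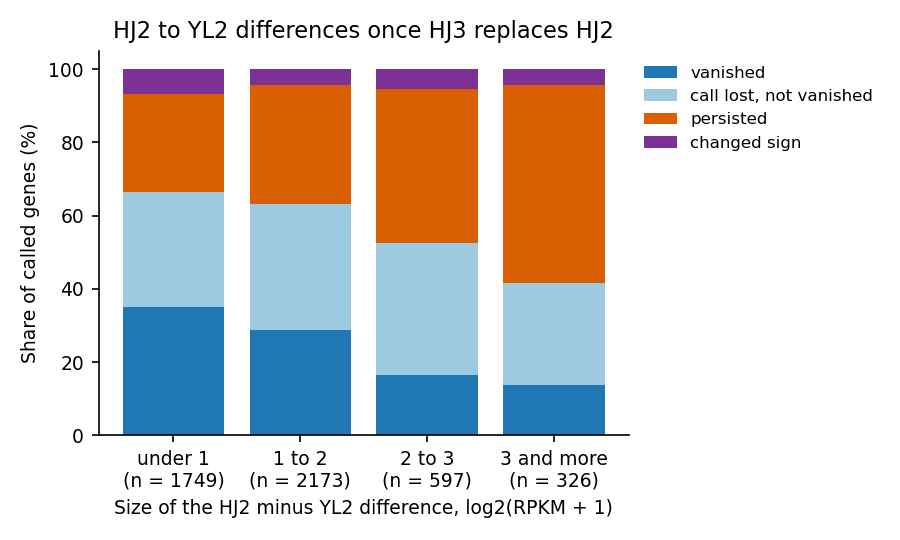
Fate of the 4845 differences called between HJ2 and YL2 once HJ3 replaces HJ2, as a percentage of the called genes (y axis) in each class of size of HJ2 minus YL2 on the log2 scale (x axis). The vanished share falls from 35.1% to 13.8% and the persisting share rises from 26.6% to 54.0% with size, which the rules for a call and for the interval largely set.

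Among the differences that vanished, the genes ppa010796m and ppa010171m had been low in HJ2. The gene ppa010796m stood at 2.59 and 1.12 RPKM in HJ2, 163 and 147 RPKM in HJ3, and 113 and 108 RPKM in YL2. HJ3 and YL2 were both high, and both HJ2 libraries near 0. HJ2 was 59.7 times below YL2 on 11 reads (95% counting interval 35.0 to 127), or 98.7 times without HJ2 replicate 1, with a log2 difference of -5.34 ± 0.222 (SE, limma adjusted p = 2.68e-08). HJ3 minus YL2 was 0.48 with a 95% limma interval of -0.01 to 0.97 (limma adjusted p = 0.164), although both HJ3 libraries lay above both YL2 libraries. The gene ppa010171m stood at 5.74 and 9.27 RPKM in HJ2, 244 and 258 RPKM in HJ3, and 224 and 221 RPKM in YL2. HJ2 was 29.6 times below YL2 (log2 difference -4.75 ± 0.229 SE, limma adjusted p = 7.99e-08), and HJ3 minus YL2 was 0.17 (interval -0.33 to 0.68, limma adjusted p = 0.678). The cultivars not used in the class differed in this gene, with 35.7 and 34.9 RPKM in JX2 and 301 and 398 RPKM in ZH2.

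The genes ppa001772m and ppa010195m had been high in HJ2. The gene ppa010195m stood at 40.3 and 44.4 RPKM in HJ2, 1.096 and 0.676 RPKM in HJ3, and 1.21 and 1.17 RPKM in YL2. Its level in HJ2 was 35.6 times that in YL2 on 6 reads (95% counting interval 16.2 to 98.6), with a log2 difference of 4.31 ± 0.338 (SE, limma adjusted p = 2.98e-06). HJ3 minus YL2 was -0.22 (interval -0.97 to 0.52, limma adjusted p = 0.720), on 3 reads in HJ3 and 6 in YL2. The depth-corrected ratio of YL2 to HJ3 was 1.31 (95% counting interval 0.28 to 8.10). A difference of several fold between these low levels is therefore not excluded. HJ1, at 33.8 and 28.0 RPKM, and ZH2, at 38.5 and 26.8 RPKM, stood near HJ2. The gene ppa001772m stood at 21.5 and 22.5 RPKM in HJ2 and was down to 2 reads in HJ3 and 1 read in YL2. The depth-corrected ratio of HJ2 to YL2 was 255 (95% counting interval 45.4 to 10100), or 125 without YL2 replicate 2 and with no ratio without the YL2 library that held the read. HJ3 minus YL2 was 0.22 (interval -0.42 to 0.87, limma adjusted p = 0.668), which at 2 reads against 1 says only that both were near the floor of detection.

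Of the 1598 differences that persisted, 871 were higher in both 'Hu Jing Mi Lu' stages than in YL2 and 727 lower, 28.2% and 41.5% of the HJ2 to YL2 calls in each direction. Which direction held more genes changed with the processing: there were 793 higher and 816 lower after rescaling by the median ratio, and 763 and 806 with a pseudocount of 5. In 960 of them HJ3 did not differ from HJ2 by the test, in 509 the called step from HJ2 to HJ3 led towards YL2, and in 129 it led away. The shared HJ2 libraries favour steps towards YL2 here as well. The median difference of the persisting genes from YL2 in size was 1.39 with HJ2 and 1.13 with HJ3. The count was 1016 without YL2 replicate 1 (560 higher, 456 lower) and 1023 without YL2 replicate 2 (599 higher, 424 lower). On the lower side the leading genes were again ppa1027191m and ppa024380m, without reads at any 'Hu Jing Mi Lu' stage. On the higher side the gene ppa013503m stood at 34.1 and 46.0 RPKM in HJ3, 48.76 and 49.97 RPKM in HJ2 and 53.5 and 37.7 RPKM in HJ1, with 0 reads in YL2. HJ3 was at least 28.2-fold above YL2 (log2 difference 5.34 ± 0.234 SE, limma adjusted p = 1.91e-07), and HJ2 at least 34.7-fold. JX2 also had 0 reads of this gene, while ZH2 stood at 45.6 and 35.1 RPKM. The gene ppa011307m stood at 182 and 254 RPKM in HJ3, 1329 and 1187 RPKM in HJ2 and 4.63 and 2.84 RPKM in YL2. HJ1, which the class does not use, was as low as YL2, at 0 and 2.58 RPKM. JX2 stood at 48.1 and 42.8 RPKM. HJ3 was 58.4 times above YL2 on 18 reads (95% counting interval 36.2 to 97.9), with a log2 difference of 5.54 ± 1.18 (SE, limma adjusted p = 0.00665), and the call was lost without YL2 replicate 2 (5.26, limma adjusted p = 0.0542). Its libraries were far apart in ZH2, at 4.13 and 173 RPKM.

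Further genes were called against YL2 with HJ3 and not with HJ2. A missing call with HJ2 does not show that HJ2 and YL2 were alike, and no interval limit was set for this class. Of the 3077 genes called between HJ3 and YL2, 1218 were not called between HJ2 and YL2. In 821 of these the step from HJ2 to HJ3 was called in the direction of the difference, 453 higher and 368 lower in HJ3. The balance was not stable: it was 538 higher and 295 lower after rescaling by the median ratio, 366 and 395 with a pseudocount of 0.1, and 362 and 376 without HJ3 replicate 1. The lower genes numbered 239 without HJ3 replicate 2, 241 without YL2 replicate 1, 232 without YL2 replicate 2 and 245 without HJ2 replicate 1. The gene ppa010355m stood at 186 and 155 RPKM in HJ3 and at 0 and 2.13 RPKM in YL2, with 2.67 and 3.37 RPKM in HJ2. The ratio of HJ3 to YL2 was 160 on 5 reads (95% counting interval 67.7 to 492), or 80.2 without YL2 replicate 1, with no ratio without the YL2 library that held the reads. HJ3 minus YL2 was 6.59 ± 0.570 on the log2 scale (SE, limma adjusted p = 1.76e-05), while HJ2 minus YL2 was 1.18 (interval -0.08 to 2.44, limma adjusted p = 0.146), with both HJ2 libraries above both YL2 libraries. The gene had been as high in HJ1, at 173 and 186 RPKM, as in HJ3. The gene ppa011835m was also low in HJ2 and YL2, at 3.67 and 2.32 RPKM in HJ2 and 3.64 and 0 in YL2, which overlapped. It stood at 176 and 161 RPKM in HJ3 and lower in HJ1, at 87.0 and 99.2. HJ3 was 92.5 times above YL2 on 6 reads (95% counting interval 43.1 to 259), or 46.2 times without YL2 replicate 2, with no ratio without YL2 replicate 1 (log2 difference 6.30 ± 0.575 SE, limma adjusted p = 2.54e-05). JX2 and ZH2 stood at 2.94 RPKM or less for this gene and at 2.85 RPKM or less for ppa010355m. On the lower side the counts were small. The gene ppa018713m, of 252 bp, had 0 reads in HJ3 and 12.9 and 7.78 RPKM in YL2, on 13 reads, at least 1.28-fold lower in HJ3 (log2 difference -3.47 ± 0.359 SE, limma adjusted p = 6.26e-05). Without YL2 replicate 1 the bound was 0.961, which no longer excludes equal levels. The gene ppb021125m, of 261 bp, had 1 read in HJ3 against 18 reads in YL2, a depth-corrected ratio of 11.8 (95% counting interval 1.86 to 492), or 6.52 without HJ3 replicate 2 and no ratio without HJ3 replicate 1 (limma adjusted p = 0.000939). It stood at 15.6 and 12.0 RPKM in YL2 and at 6.28 and 5.95 RPKM in HJ2, so that both HJ2 libraries lay below both YL2 libraries as well. HJ2 minus YL2 was -1.05 (interval -2.09 to -0.0015, limma adjusted p = 0.121), which missed the limit for a call.

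**Figure D4:**
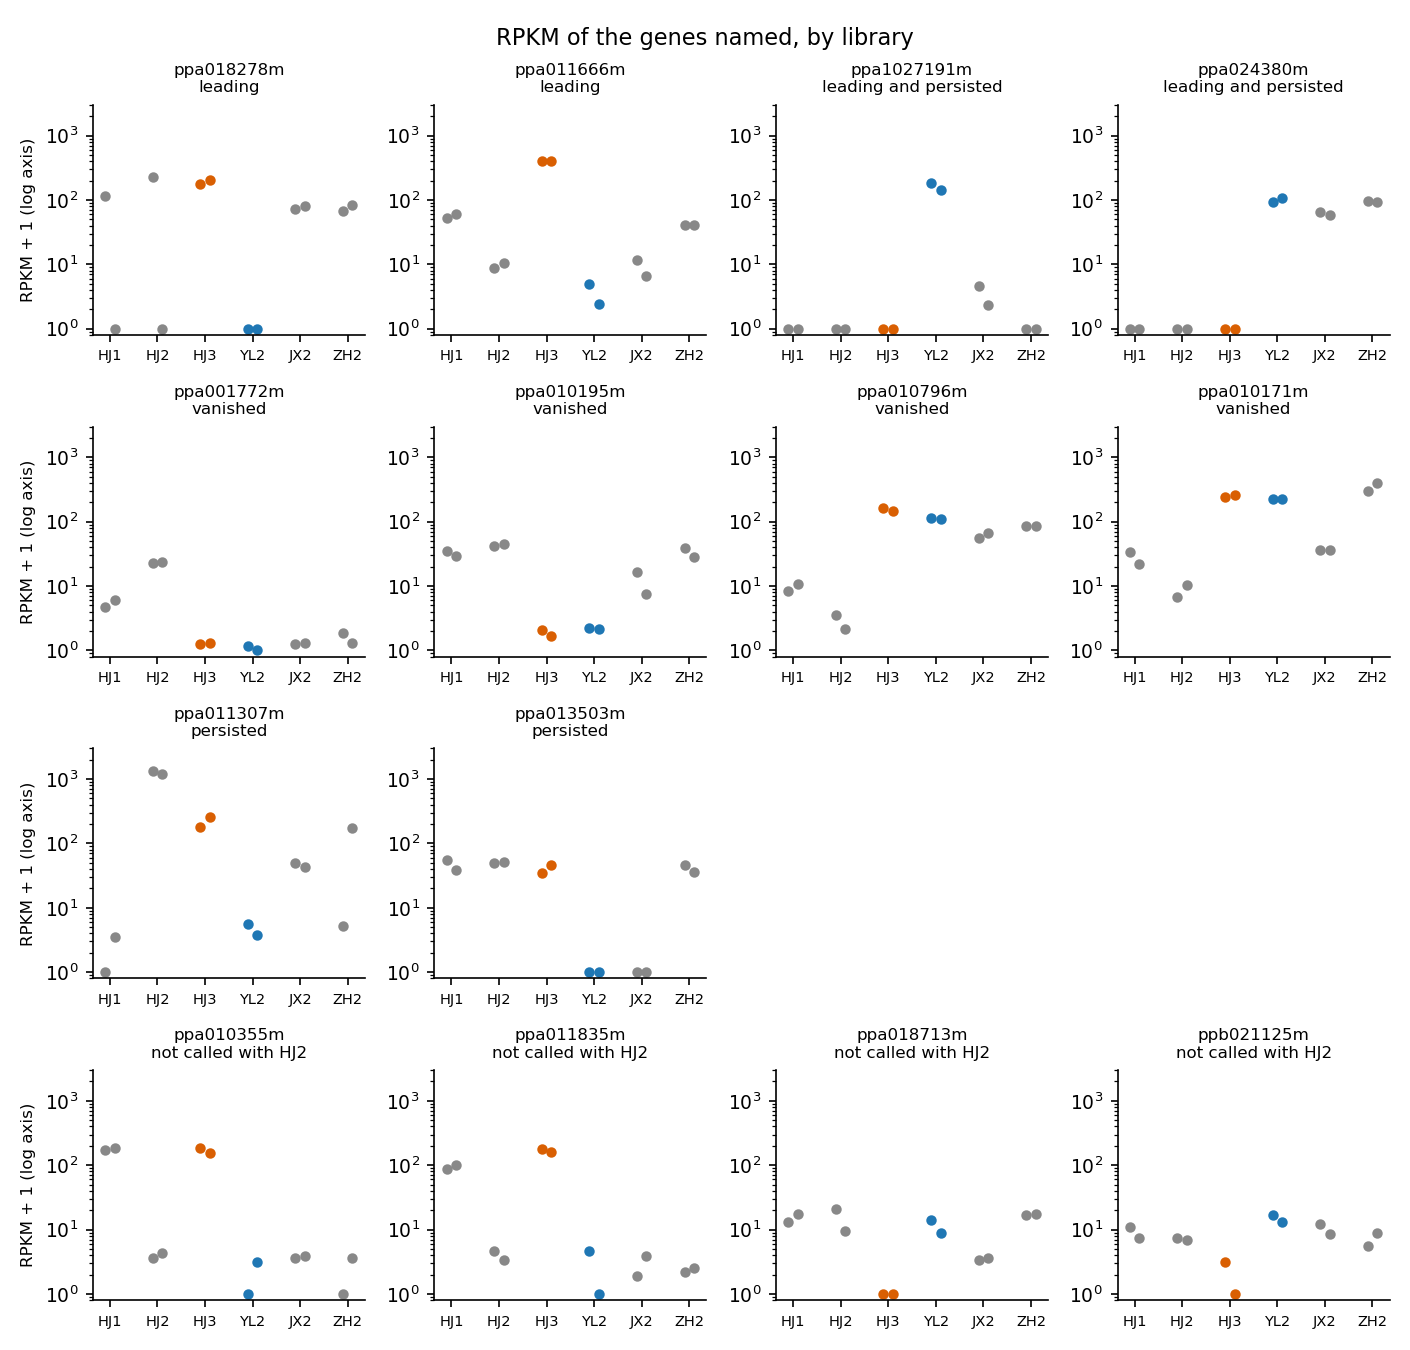
RPKM + 1 on a log axis (y axis) in each of the 12 libraries, by group (x axis), for named genes. Shown are the leading genes and those named as vanished, persisting or not called with HJ2, without the genes that changed sign. Each point is a library, with HJ3 in orange and YL2 in blue, and a gene with 0 reads lies at 1. In the vanished genes the HJ3 and YL2 points lie together and apart from HJ2, and in the persisting genes HJ2 and HJ3 lie on the same side of YL2.

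A change of sign was found for 261 genes, of which 164 were lower in HJ2 and higher in HJ3 than YL2 and 97 were higher in HJ2 and lower in HJ3. After rescaling by the median ratio the numbers were 203 and 56. The count was 109 without YL2 replicate 1, 114 without YL2 replicate 2 and 166 without HJ2 replicate 1. The rule for this class places YL2 between the 2 stages of 'Hu Jing Mi Lu' and so favours a large step between them. As a description, the median size of the HJ3 minus HJ2 difference was 2.21 on the log2 scale, beside 0.48 over all genes tested.

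The levels of these classes in the groups that did not choose them are a description across genes, with no test. The median log2(RPKM + 1) of the vanished genes that had been higher in HJ2 was 5.20 in HJ2, 4.23 in HJ3 and 4.17 in YL2, and it was 5.24 in HJ1, 4.67 in JX2 and 4.47 in ZH2. HJ1 was therefore close to HJ2, and the other cultivars lay between. For the vanished genes that had been lower in HJ2, the median was 4.45 in HJ2, 5.84 in HJ3 and 5.78 in YL2, with 5.22 in HJ1, 5.03 in JX2 and 5.48 in ZH2, so HJ2 had the lowest level of the 6 groups. Over all genes tested the median fell between 2.84 (ZH2) and 2.95 (JX2) outside HJ1 (3.42) and HJ2 (3.11). In the persisting genes YL2 stood at the end: the median of those higher in 'Hu Jing Mi Lu' was 3.46 in YL2 and between 4.49 (ZH2) and 5.43 (HJ1) elsewhere, and the median of those lower in 'Hu Jing Mi Lu' was 5.73 in YL2 and between 4.34 (HJ2) and 4.85 (ZH2) elsewhere. In the genes called against YL2 with HJ3 and not with HJ2, HJ3 stood at the end, at 4.44 for the higher genes, with 3.22 in HJ1 and 3.06 or less in the others, and at 3.88 for the lower genes, with 4.43 or more in the others. A group used to choose a class tends to lie at its edge, so the order of the chosen groups carries no information of its own.

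**Figure D5:**
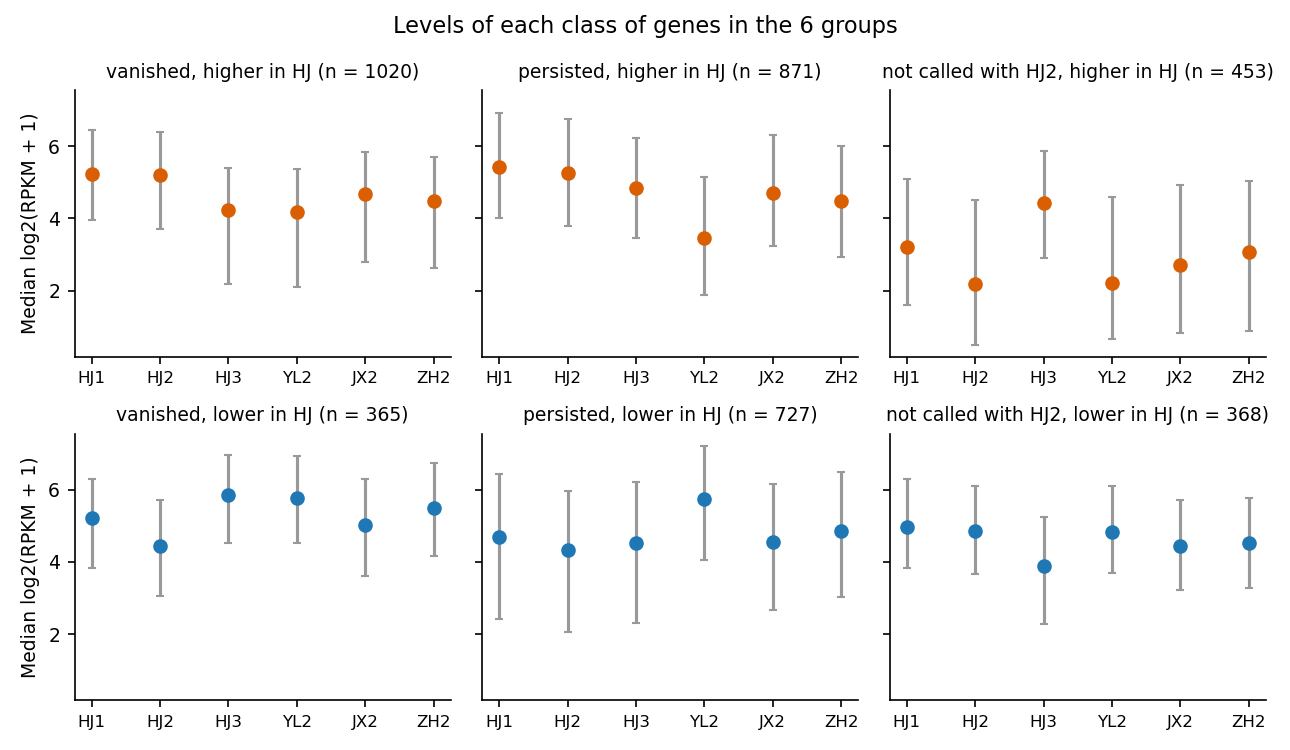
Median log2(RPKM + 1) over the genes of each class (points) with the lower and upper quartiles (bars) in the 6 groups, for genes whose difference to YL2 vanished, persisted or was not called with HJ2. The upper row holds genes higher and the lower row genes lower than YL2 in HJ2 (vanished), in both stages (persisted) or in HJ3 (not called with HJ2), and in the vanished classes HJ3 and YL2 stand level, at 4.23 and 4.17 and at 5.84 and 5.78.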

How the data were processed

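Each of the 12 libraries has a deposited table of RPKM values by gene identifier, per the file headers. The submitters' processing notes name DESeq 1.10.1, HTSeq 0.5.3, TopHat 1.4.0 and Bowtie 0.12.8, without saying what each did. Neither build and annotation nor whether strand was used and how multiply mapped reads were counted is given in the sources used here, so near-identical or overlapping genes are uncertain. RPKM is a share of the library, so abundant genes move all others. Depth, gene length and whole reads were worked back from the steps of the values with Python 3.11.15 and numpy 2.4.6; every value of the 17316 genes read in 2 or more libraries came out whole, to within 0.001 reads. A gene whose reads share a factor in every library would be given too short a length.

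Limma 3.58.1 in R 4.3.3 was fitted to log2(RPKM + 1) of 15217 genes over all 12 libraries, with 6 group means, 6 residual degrees of freedom and a variance that follows the mean. Differences are on this scale, on which low genes change too little. Benjamini-Hochberg adjustment was made for each comparison separately, with 0.05 as the limit for a call. The fit and the recovery of reads were tested on simulated data. Named genes were called, reached a mean of 10 RPKM (except those that changed sign) and ranked by log2 difference, by difference in mean RPKM, or by the smaller of both differences to YL2, 2 in each direction. The members and rules were chosen with earlier results of these data known. Where a group had 0 reads, a fold is a bound against 3 reads in its shallowest library; with 1 to 3 reads it is the depth-corrected ratio of reads, and otherwise the ratio of mean RPKM. Under 20 reads an exact binomial interval is given. Intervals and floors cover counting error only. No pair of libraries in a group was identical: chi-square per gene was 1.75 (JX2) to 2.29 (HJ3). Lists by product name were not run, since no identifier matched.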

Additional observations from a re-analysis of the deposited data

Results flagged for a closer look

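In the 4 genes below the difference to YL2 had opposite signs at the 2 stages of 'Hu Jing Mi Lu', each called by limma. HJ3 minus HJ2 is the difference between these 2 contrasts. Its call therefore follows from their opposite signs and adds no support of its own. The gene ppa013513m stood at 5.72 and 5.96 RPKM in HJ2, 48.9 and 43.1 RPKM in YL2 and 416 and 341 RPKM in HJ3. HJ2 minus YL2 was -2.78 and HJ3 minus YL2 was 3.01 on the log2 scale (limma adjusted p = 7.27e-05 and 9.68e-05), and HJ3 minus HJ2 was 5.79 (limma adjusted p = 4.32e-07). HJ1, at 27.9 and 29.0 RPKM, lay between HJ2 and YL2. The gene ppa022671m, of 204 bp, stood at 6.02 and 1.52 RPKM in HJ2, 21.9 and 34.6 RPKM in YL2 and 222 and 170 RPKM in HJ3, with HJ3 minus HJ2 at 5.53 (limma adjusted p = 6.97e-06). Its HJ2 level rests on 4 reads.

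The other 2 genes were high in HJ2 and had 0 reads in HJ3. The gene ppa013865m stood at 41.2 and 29.2 RPKM in HJ2 and 1.94 and 3.75 RPKM in YL2, with HJ3 minus HJ2 at -5.16 (limma adjusted p = 2.10e-06); ZH2, at 52.2 and 28.2 RPKM, was as high as HJ2. The gene ppa021647m stood at 18.7 and 12.2 RPKM in HJ2 and 6.64 and 1.28 RPKM in YL2, with HJ3 minus HJ2 at -4.01 (limma adjusted p = 0.000760). YL2 had 9 and 6 reads of them, so that 0 reads in HJ3 sets no bound above equal levels. The HJ3 to YL2 call of ppa021647m (adjusted p = 0.0443) was lost without YL2 replicate 1 (log2 difference -1.19, limma adjusted p = 0.323) and under most other settings.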

How the results depend on the processing

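The count of genes called between HJ3 and YL2 was 3077 over all 12 libraries and 1220 in a fit of the HJ3 and YL2 libraries alone, which has 2 residual degrees of freedom. At an adjusted p of 0.01 the counts were 1781 for HJ3 against YL2, 3089 for HJ2 against YL2 and 2777 for HJ3 against HJ2, with 1280 lost calls with a called step, 889 vanished, 925 persisting, 486 not called with HJ2 and 111 that change sign. With the interval within 0.5 rather than 1, 378 differences vanished. With the interval kept at 1, the count of vanished differences was 1026 with a pseudocount of 0.1 and 1925 with a pseudocount of 5. Leaving out an HJ3, YL2 or HJ2 library in turn, so that the remaining library is assumed to vary like the other groups, gave 1912 to 2745 calls for HJ3 against YL2, 3272 to 4994 for HJ2 against YL2 and 2886 to 4244 for HJ3 against HJ2. It gave 1881 to 3530 lost calls, 1219 to 1842 with a called step, 855 to 1089 vanished, 1016 to 1343 persisting, 597 to 738 not called with HJ2 and 109 to 220 that change sign. Same-numbered libraries showed little common deviation (r of 0.023 to 0.0499 across genes, low ones included, for HJ3, YL2 and HJ2). The labels do not say what libraries of the same number share, and a shared harvest or preparation was not tested. With the replicate block 2939 genes were called between HJ3 and YL2 and 1334 differences vanished. Limma voom on the whole reads called 3250 genes between HJ3 and YL2, 2751 of them shared with the 3077, and gave 1213 vanished differences. In the fit of the HJ3 and YL2 libraries alone the abundant genes ppa007098m, ppa008791m, ppa009581m and ppa010326m were not called (limma adjusted p = 0.119, 0.718, 0.532 and 0.216), nor were ppa011835m (0.0540), ppb021125m (0.107) and ppa013865m (0.0593). In a fit to the HJ2, HJ3 and YL2 libraries ppa009581m was not called (limma adjusted p = 0.0630), and with a pseudocount of 5 ppa013865m was not (0.106). Of the 370 values of named genes under other settings, 336 kept their direction and side of the threshold, 34 were no longer called and 0 reversed. These values follow each gene in a single comparison, HJ2 minus YL2 for the vanished genes and HJ3 minus YL2 for the others. Whether a named gene kept its class was not followed.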

Other observations

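Some called genes had 0 reads in both HJ3 or in both YL2 libraries. Of the genes called lower in HJ3, 13 had 0 reads in both HJ3 libraries and a mean of at least 10 RPKM in YL2, with YL2 means from 10.3 to 165 RPKM and a median of 17.9. Of these, 7 had 0 reads in all 6 'Hu Jing Mi Lu' libraries, and all 7 were read in JX2 or ZH2. The others were read in HJ1 or HJ2. In the other direction 12 called genes had 0 reads in both YL2 libraries and a mean of at least 10 RPKM in HJ3. Their HJ3 means ran from 11.8 to 191 RPKM, with a median of 16.9. Of these 12, 3 had at least 1 RPKM in all 6 'Hu Jing Mi Lu' libraries, and 4 were read in every other group. With a single stage of 'Yu Lu', whether that cultivar has reads of these 12 genes at another stage could not be seen. Genes of either pattern that were not called were not counted. A count of 0 reads allows up to 3 reads, and whether a sequence difference between cultivars keeps reads from mapping was not tested.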
